A study of Mus musculus with 185 samples.

Results

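The superior and inferior colliculi were compared between 6 mice fasted for 16 h and 6 mice kept on chow. All were male C57BL/6J mice, 8 weeks old and housed in pairs, so that each diet held 3 cages, and another group of 6 mice given a high-fat diet (HFD) for 16 h entered the same fit. Total RNA depleted of ribosomal RNA was sequenced from 5 brain regions of each mouse, and the deposited counts name the mouse of each library but not its region. The collicular libraries, called columns here after the columns of the count matrix, were therefore chosen by measured values: in each mouse, the 2 columns with the highest mean log2 of counts per 1000000 (CPM) plus 1 over Pax7, Tfap2b and Tfap2d, if both lay at least 0.5 above the third column. This gave 24 of the 185 columns of the series, 2 in each of the 12 mice, while the high-fat diet group gave both columns in 4 of 6 mice. The 2 columns of a mouse were added up, and Pax7, Tfap2b and Tfap2d were left out of all tests. A second study, with other mice housed singly, gave a 24 h fast, and its colliculi (8 chow and 9 fasted mice) are set beside the 16 h values.

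The colliculi form the roof of the midbrain. The superior colliculus receives the retina and steers gaze and orienting, and the inferior colliculus relays sound from the hindbrain to the thalamus. Neither is a classical feeding centre, but their astrocytes, oligodendrocytes and endothelial cells carry the glucocorticoid receptor, as glia do elsewhere in the brain. In fasting, corticosterone rises and insulin falls, and cells turn from glucose towards fatty acids and ketone bodies. Genes that the glucocorticoid receptor and FoxO factors switch on are the best known transcript readouts of this state outside the hypothalamus.

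In several mice the values that chose the columns showed 2 kinds of collicular library. Pax7 and Tfap2b, transcription factor genes of the superior colliculus, ran together in chow mice 2, 4 and 5 and fasted mice 7, 8 and 12. In these mice Tfap2d, a transcription factor gene of the inferior colliculus, was high in the other column. In chow mouse 5, for example, the column with more Pax7 had 57.4 CPM of Pax7 and 6.30 CPM of Tfap2d, and the column with less Pax7 had 0.742 and 56.4 CPM. The remaining mice departed from this. In the columns with more and with less Pax7, Tfap2d had 48.3 and 0.179 CPM in chow mouse 6 and 52.6 and 26.8 CPM in fasted mouse 11. It had 41.0 and 48.4 CPM in chow mouse 3, 9.68 and 9.18 CPM in chow mouse 1 and 6.72 and 5.74 CPM in fasted mouse 9. Tfap2b had 12.5 and 41.9 CPM in chow mouse 6. Just inside the rule, chow mouse 6 had the smallest gap between the second and the third column, 1.13, and fasted mouse 11 the largest, 2.93. Fasted mouse 9 had a gap of 1.44 although the third column by score carried 43.8 CPM of Tfap2d, because both columns the rule took were rich in Pax7, 55.8 and 46.9 CPM. Just outside, the 2 high-fat diet mice without a pair of columns had gaps of 0.0229 and 0.0442. In chow mice 3 and 6 and fasted mice 10 and 11 Pax7 reached only 6.69, 4.48, 8.89 and 3.56 CPM in the richer column, so that their sums held little superior colliculus by this marker. In fasted mouse 10 Tfap2d had 1.88 CPM in that column and 45.5 CPM in the other. This mouse had only 4 columns with at least 1000000 counts. Of its libraries the labels mark only the superior colliculus as failing, at alignment. Its column with more Pax7 may therefore come from another region, which was not tested.

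**Figure D1:**
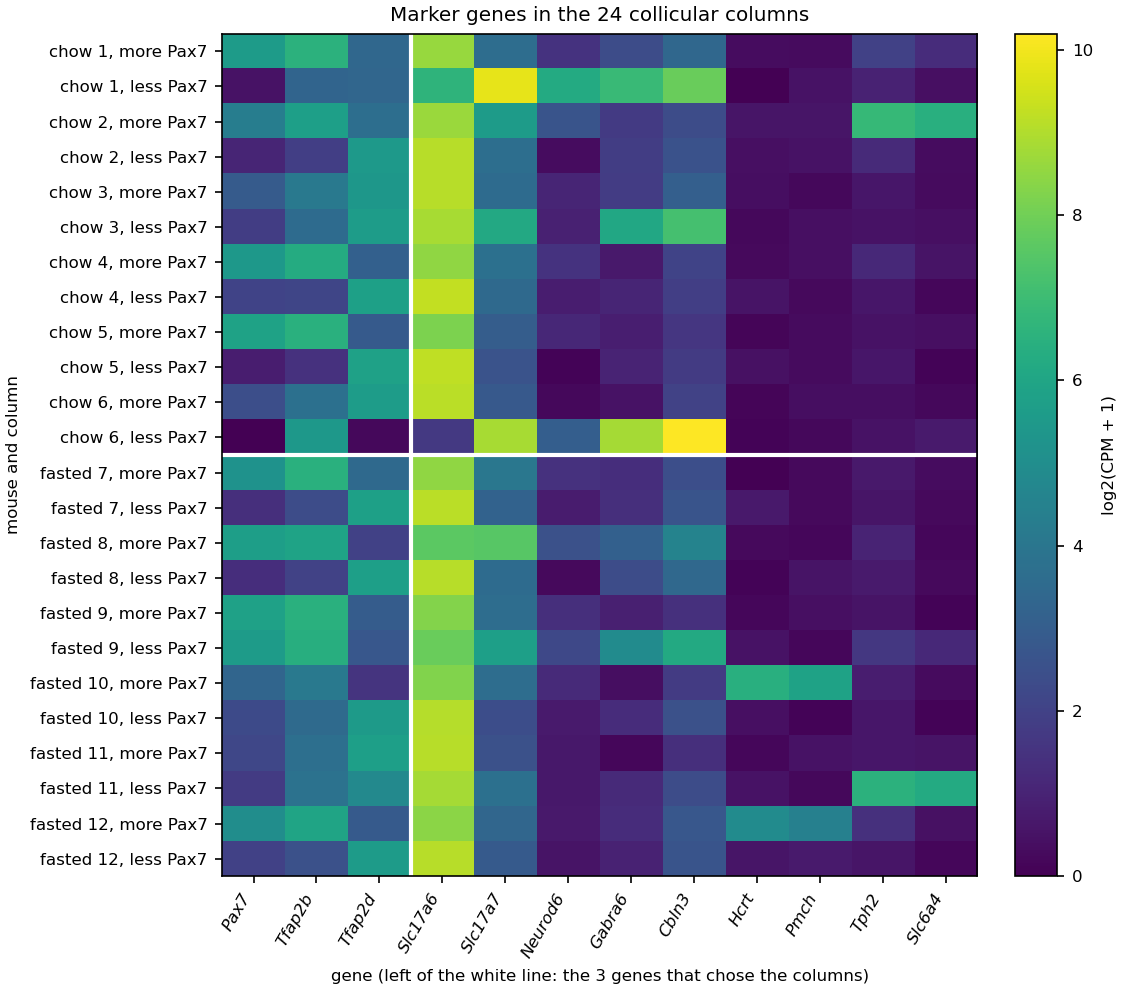
Marker genes in the 24 columns, as log2(CPM + 1), with chow mice above and fasted mice below the white line and the genes that chose the columns on the left. The column of chow mouse 6 with less Pax7 stands out by Gabra6 and Cbln3, and the columns of fasted mice 10 and 12 with more Pax7 by Hcrt and Pmch.

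Markers of other regions went against the label in several columns. In chow mouse 6 the column with less Pax7 had 449 CPM of Gabra6 and 1172 CPM of Cbln3, genes of cerebellar granule cells, and 2.26 CPM of Slc17a6, the glutamate transporter gene of collicular neurons, which lay between 98.8 and 606 CPM in the other 23 columns. In chow mouse 1 the column with less Pax7 had 904 CPM of Slc17a7, the glutamate transporter gene of cortex, hippocampus and cerebellum, and 118 CPM of Gabra6. Tph2, the serotonin synthesis gene of the raphe, reached 112 CPM in a column of chow mouse 2 and 92.8 CPM in a column of fasted mouse 11. Hcrt, the orexin gene of the lateral hypothalamus, reached 85.2 CPM in the column of fasted mouse 10 with more Pax7 and 29.4 CPM in that of fasted mouse 12, and no other column of those 2 mice with at least 1000000 counts exceeded 0.496 CPM. Chow mice 1 and 6 and fasted mice 10 and 12 are also the 4 mice with a colliculus library that the labels mark as failing quality control. Results are therefore given with all 12 mice and with the 4 chow mice and 4 fasted mice (2 to 5, and 7, 8, 9 and 11) that have no such library. These 8 mice were not free of other regions: the column of fasted mouse 8 with more Pax7 had 187 CPM of Slc17a7 and 21.7 CPM of the cortical gene Tbr1, and Gabra6 reached 68.2 CPM in a column of chow mouse 3 and 29.1 CPM in a column of fasted mouse 9. In them, 7 of 8 hippocampus and cortex markers had higher values in fasted mice, 2 at an unadjusted p under 0.05, with a median log2 fold change of 1.29. Further fits took columns low in markers of other regions: a marker score above 2 and Gabra6, Neurod6, Hcrt and Tph2 each under 15 CPM. These limits were set after values had been seen. The filter kept 1 column in chow mice 1, 2, 3 and 6 and in fasted mice 10, 11 and 12. It kept 2 columns in the other chow and fasted mice. The mix of superior and inferior colliculus in these sums therefore differed between mice and diets, and its part was not tested. The filter does not use Slc17a7 or Tbr1, and both columns of fasted mouse 8 passed it. In that fit 5 of 6 hippocampus and cortex markers had higher values, 3 at an unadjusted p under 0.05, with a median of 1.44.

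Depth was similar in both diets. The sums held 30598927 to 45238904 counts in chow mice and 28991045 to 37904156 in fasted mice, and mitochondrial transcripts made up 3.14 to 4.00% and 3.66 to 4.71%. Body weight changed by -1.21 to 5.13% in chow mice and by -7.52 to -1.30% in fasted mice, without overlap. Mice 11 and 12, which shared a cage, lost 7.52 and 6.49%, and the other 4 fasted mice lost between 1.30 and 2.51%. Each cage held a single diet, so that the effect of a cage and that of the diet cannot be told apart within it. In order of start time the cages formed 3 rounds, each with a chow, a fasted and a high-fat diet cage, and p-values treat cage mates as independent mice. The colliculus libraries of a mouse came from a single hemisphere. By the labels it was the left in the first round, the right in the third and either in the second.

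After 16 h no gene passed the test between fasted and chow colliculi. In edgeR's quasi-likelihood test 0 of 26255 genes (0% of those tested) had an adjusted p under 0.05, and the lowest adjusted p was 0.290, for the predicted gene Gm47179, followed by 0.556. At an unadjusted p under 0.05 stood 2257 genes (8.60%), 1023 of them higher (3.90%) and 1234 lower (4.70%) in the fasted mice. The median log2 fold change of all genes was -0.0016. Without the 4 mice with a failed library the same test also called 0 genes, and 948 of 25625 genes had an unadjusted p under 0.05 (3.70%), 488 higher (1.90%) and 460 lower (1.80%). In 39 genes (0.149%) every fasted mouse lay above every chow mouse, and in 36 (0.137%) every fasted mouse lay below.

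DESeq2 called 8 of the 35689 genes to which it gave an adjusted p (0.0224%), all higher in the fasted mice. They were Hcrt, Gm47179, Etnppl, Hif3a, Avp, Uvssa, Fas and Pmch, and they are named here because this count was seen. Hcrt had a median of 0.222 CPM in chow mice and 0.289 CPM in fasted mice, and only fasted mice 10 and 12, with 50.4 and 13.9 CPM, stood above the others. Avp, the vasopressin gene of the hypothalamus, had 79.3 and 23.8 CPM in the same mice and at most 1.35 CPM in the other 10. The log2 fold change of Avp without the 4 mice with a failed library was 0.19 ± 0.47 (SE) in edgeR. Hcrt and Pmch were below the count filter there. Fas, the gene of a death receptor, lay at 1.07, 1.14 and 1.63 CPM (lowest, median and highest) in chow mice and at 1.86, 2.00 and 2.61 CPM in fasted mice, without overlap, a log2 fold change of 0.75 ± 0.15 (n = 6 and 6, adjusted p = 0.556 in edgeR and 0.0269 in DESeq2). Leaving out the 4 mice kept it at 0.61 ± 0.18.

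The 12 genes with higher values and the lowest p were Etnppl, Uvssa, Hif3a, Cbs, Sdc4, Prodh, Cirbp, Gstz1, Zkscan2, Tgif1, Oacyl and Erlin2, none of them called by edgeR (adjusted p = 0.556 for each in edgeR). Etnppl, Uvssa and Hif3a are among the genes that DESeq2 called. Several act in the breakdown of small molecules in astrocytes and other cells: Etnppl splits phosphoethanolamine, Cbs joins homocysteine and serine to cystathionine, Prodh oxidises proline and Gstz1 takes part in tyrosine breakdown. Etnppl (chromosome 3, 130411097 to 130431441, plus strand, GRCm39) had 51.3, 72.4 and 73.9 CPM in chow mice and 72.5, 103 and 122 CPM in fasted mice. Of the 6 fasted mice 5 lay above every chow mouse, and the lowest chow value was that of mouse 6. Its log2 fold change was 0.57 ± 0.11, 0.46 without the 4 mice and 0.29 ± 0.13 in columns low in markers of other regions. Hif3a, a hypoxia-inducible factor gene that glucocorticoids also raise in several tissues (chromosome 7, 16764918 to 16796352, minus strand), had 6.84, 7.82 and 8.42 CPM in chow mice and 8.23, 14.9 and 29.7 CPM in fasted mice. Fasted mouse 8 lay inside the chow range, and mice 11 and 12 had the 2 highest values, 29.7 and 25.1 CPM. The log2 fold change of Hif3a was 1.14 ± 0.25, and 0.93 without the 4 mice.

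Uvssa, which serves transcription-coupled DNA repair (chromosome 5, 33535860 to 33577099, plus strand), differed by less but with little spread, from 34.0, 36.5 and 37.7 CPM in chow mice to 40.0, 42.1 and 42.5 CPM in fasted mice. The groups did not overlap, and the 4 high-fat diet mice lay between 32.5 and 35.9 CPM. The log2 fold change was 0.20 ± 0.04, and 0.22 without the 4 mice. Cbs (chromosome 17, 31827868 to 31856646, minus strand) had 29.1, 35.6 and 37.9 CPM in chow mice and 39.5, 43.2 and 48.2 CPM in fasted mice, and Prodh 31.4, 35.4 and 39.0 against 39.7, 42.2 and 53.5 CPM, both without overlap. Their log2 fold changes were 0.32 ± 0.07 and 0.31 ± 0.07. Oacyl was the fourth gene of the 12 without overlap, with 1.85 to 2.73 CPM in chow mice and 2.95 to 3.72 CPM in fasted mice.

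In the other 8 of the 12, Etnppl and Hif3a among them, 5 of the 6 fasted mice lay above every chow mouse. Sdc4, a heparan sulfate proteoglycan gene, had a log2 fold change of 0.34 ± 0.08, and Cirbp, the cold-inducible RNA-binding protein gene, 0.34 ± 0.08. Tgif1, a homeobox repressor gene, had 0.56 ± 0.13 and Erlin2, a gene of the endoplasmic reticulum membrane, 0.26 ± 0.06. Gstz1 and Zkscan2 had 0.25 ± 0.06 and 0.23 ± 0.05. All 12 kept a higher value without the 4 mice with a failed library, in a fit on 8 of the same mice, which is no independent test. Prodh had 0.20 there, Gstz1 had 0.14 in columns low in markers of other regions, and Erlin2 had 0.13 in columns with at least 15 CPM of Pax7.

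**Figure D2:**
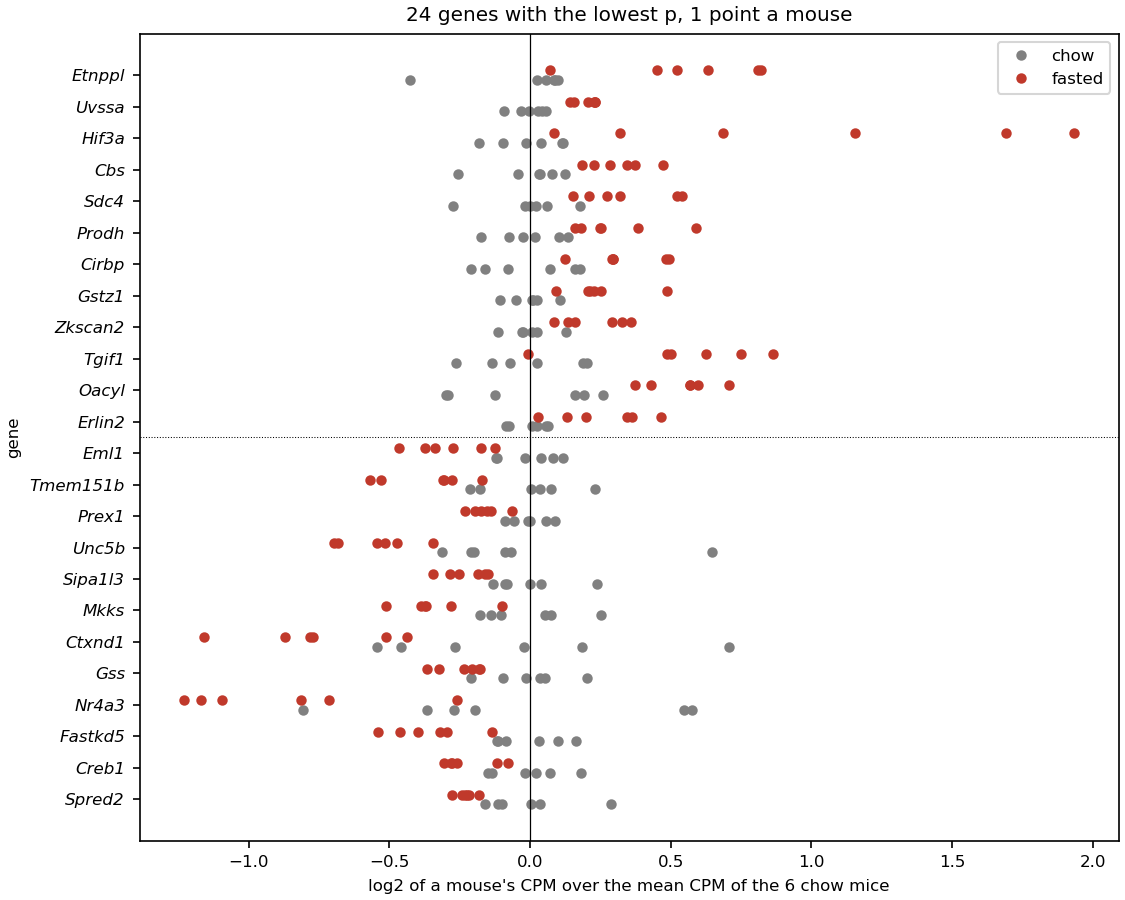
The 24 genes with the lowest p, 12 higher and 12 lower in fasted mice, as log2 of each mouse's CPM over the mean CPM of the 6 chow mice, with chow mice in grey and fasted mice in red. In 4 of the 12 upper and 5 of the 12 lower genes the 6 fasted mice lie outside the range of the 6 chow mice. Of all genes 0.149% and 0.137% do so, above and below, but these 24 were picked by p in the same mice.

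The 12 genes with lower values and the lowest p were Eml1, Tmem151b, Prex1, Unc5b, Sipa1l3, Mkks, Ctxnd1, Gss, Nr4a3, Fastkd5, Creb1 and Spred2 (adjusted p = 0.556 for each in edgeR). Eml1, which codes for a microtubule-binding protein, had 61.4, 67.1 and 72.3 CPM in chow mice and 48.3, 53.9 and 61.2 CPM in fasted mice. The groups did not overlap, and the log2 fold change was -0.29 ± 0.06, the same value of -0.29 without the 4 mice. Unc5b, a netrin receptor gene, had 63.4, 71.4 and 124 CPM in chow mice and 48.7, 54.6 and 62.1 CPM in fasted mice. The highest value was that of chow mouse 6 and the next 75.2 CPM, and the log2 fold change of -0.54 ± 0.13 became -0.38 without the 4 mice. Sipa1l3, Fastkd5 and Spred2 also had no overlap, with log2 fold changes of -0.23 ± 0.06, -0.35 ± 0.09 and -0.23 ± 0.06. They were -0.11, -0.30 and -0.13 without the 4 mice, -0.06, -0.28 and -0.07 in columns low in markers of other regions, and -0.04, -0.18 and -0.08 in columns with at least 40 CPM of Tfap2d. Spred2 codes for an inhibitor of Ras and ERK signalling, and Fastkd5 for a mitochondrial RNA-processing protein.

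Gss, the last enzyme of glutathione synthesis, had a log2 fold change of -0.25 ± 0.06, Creb1, the cAMP response element binding factor, -0.22 ± 0.06, and Prex1, an activator of Rac, -0.16 ± 0.04. Tmem151b, Mkks and Ctxnd1 had -0.35 ± 0.08, -0.33 ± 0.08 and -0.74 ± 0.19. Without the 4 mice Tmem151b had -0.19 and Creb1 -0.14, in columns with at least 15 CPM of Pax7 Creb1 had -0.09 and Mkks -0.15, and in columns low in markers of other regions Prex1 had -0.09. In Ctxnd1 the value was -0.46 without the 4 mice and -0.12 in columns with at least 40 CPM of Tfap2d. Nr4a3, an immediate early gene, had 6.72, 10.0 and 17.5 CPM in chow mice and 5.01, 6.10 and 9.82 CPM in fasted mice. The 2 highest chow values were those of mice 1 and 6, and the log2 fold change of -0.84 ± 0.22 was -0.40 without the 4 mice and 0.24 in columns with at least 15 CPM of Pax7.

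Of the 22 lists, that of glucocorticoid-responsive genes had the most members with higher values in fasted colliculi at an unadjusted p under 0.05, and none was called. Of 20 genes, 19 were tested (Lcn2 was below the filter), 16 had a higher mean value, and 12 were higher and 0 lower at an unadjusted p under 0.05, where 3.90% of all genes were higher. The median log2 fold change was 0.28, against -0.0016 over all genes. Without the 4 mice with a failed library the median was 0.22 and 5 of the 19 were higher at an unadjusted p under 0.05, where 1.90% of all genes were. The list was chosen with results of these mice known, so its direction here is a description.

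Plin4, a lipid droplet protein gene, led the list with 11.0, 11.6 and 15.9 CPM in chow mice and 15.1, 19.3 and 43.9 CPM in fasted mice. One fasted mouse lay within the chow range, and the log2 fold change was 0.97 ± 0.23 (adjusted p = 0.556 in edgeR). Mt1, a metal-binding metallothionein gene, had 35.1, 42.1 and 47.7 CPM in chow mice and 44.3, 56.8 and 75.2 CPM in fasted mice, a log2 fold change of 0.47 ± 0.13. Map3k6, a stress kinase gene, had 1.83, 2.14 and 2.44 against 2.22, 3.28 and 4.95 CPM, a log2 fold change of 0.66 ± 0.19. Both overlapped between diets in 2 fasted mice. Sgk1, the serum and glucocorticoid regulated kinase gene, had 43.3, 44.0 and 51.2 CPM in chow mice and 35.8, 58.3 and 91.6 CPM in fasted mice, so that the lowest and the highest values were both in fasted mice, 7 and 11. Cdkn1a, the cell cycle inhibitor p21 gene, Arrdc2, Sult1a1 and Fkbp5, the receptor's own inhibitor, had log2 fold changes of 0.71 ± 0.25, 0.45 ± 0.14, 0.36 ± 0.13 and 0.28 ± 0.11. Dusp1, Errfi1 and Klf9 were the 3 members with lower mean values, -0.26 ± 0.23, -0.05 ± 0.07 and -0.05 ± 0.08. In no member of the list did every fasted mouse exceed every chow mouse, where 0.149% of all genes did.

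**Figure D3:**
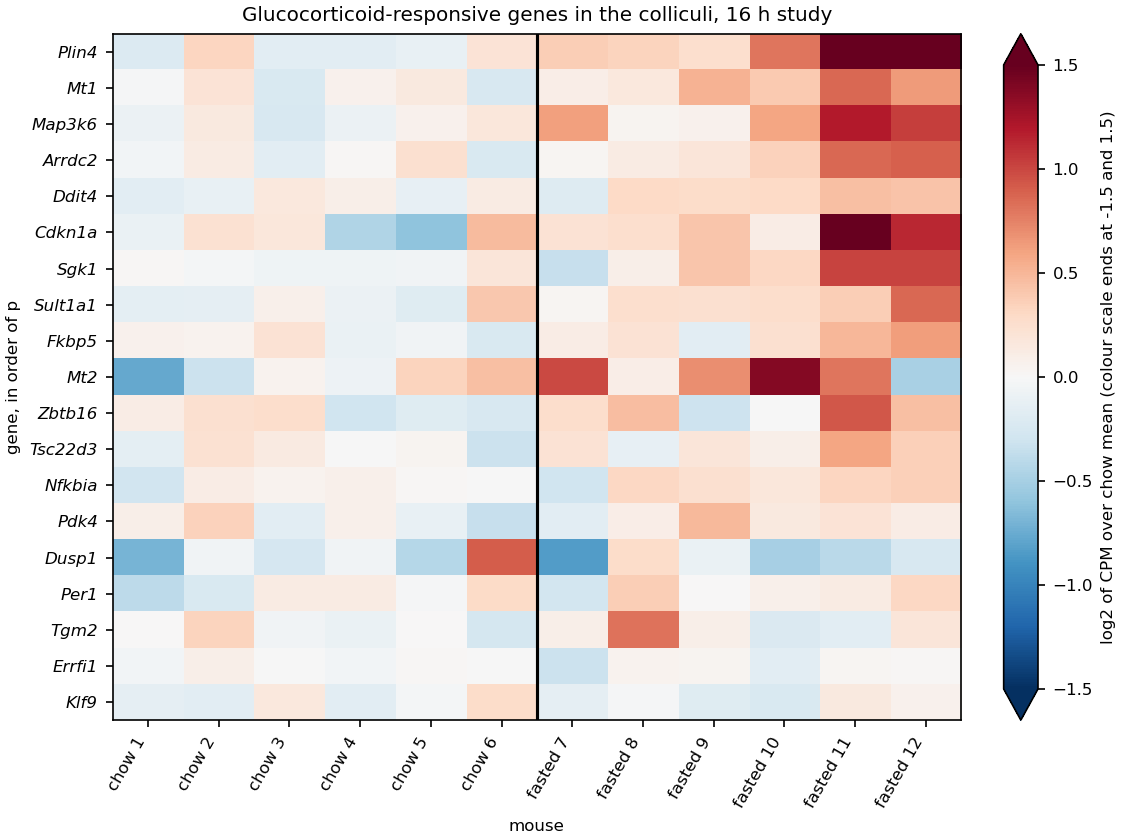
The 19 tested glucocorticoid-responsive genes in the 12 mice, as log2 of CPM over the mean of the chow mice, with genes in order of p. Fasted mice 11 and 12, with list means of 0.59 and 0.51, have the strongest colours, and fasted mouse 7, with 0.03, lies within the chow range.

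The fasted mice were spread widely along this list. The mean log2 CPM over its 19 genes, relative to the chow mean, was 0.59 in mouse 11 and 0.51 in mouse 12, 0.23, 0.22 and 0.19 in mice 8, 10 and 9, and 0.03 in mouse 7. In chow mice it ran from -0.13 to 0.10, so that fasted mouse 7 lay inside the chow range and the other 5 above it. Mice 11 and 12 are also the pair with the largest weight loss of the 6. By round of cages, with 2 mice a diet in each, the fasted mice exceeded the chow mice by 0.15, 0.22 and 0.52 in the first, the second and the third round. The same values were 0.37, 0.77 and 1.80 for Hif3a, 0.22, 0.48 and 0.98 for Etnppl and 0.29, 0.68 and 1.59 for Plin4, but 0.24, 0.18 and 0.18 for Uvssa and 0.27, 0.17 and 0.51 for Cbs. Without the third round the median log2 fold change of the list was 0.18 and 5 of 19 genes were higher at an unadjusted p under 0.05, and without fasted mouse 11 it was 0.23, with 8 of 19. Round, cage, hemisphere and weight loss moved together in the third round, and their parts in the result were not tested.

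**Figure D4:**
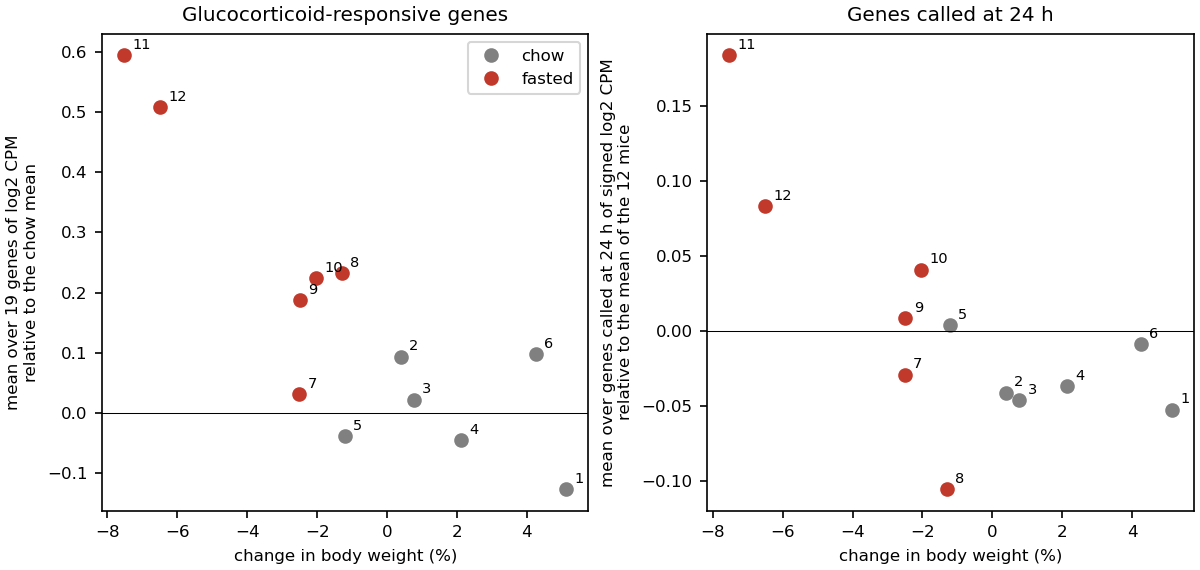
Each point is a mouse, numbered as in the text, with its change in body weight in percent on the x axis. The y axis is the mean of the 19 glucocorticoid-responsive genes (left) and the mean of the genes called at 24 h with the sign of the 24 h effect (right), both on the log2 CPM scale. Fasted mice 11 and 12 are at the upper left of both panels.

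Start-site sequence was looked at for the glucocorticoid list because its members had higher values together. RefSeq start sites in GRCm38.p6, from 250 bases before to 50 after the start, were found for 17 of the 19 genes, 27 windows in all. The receptor's half-site, TGTTCT on either strand, was in 5 of the 27 windows, those of 3 genes, and in 6233 of all 32851 windows (18.97%). The paired form, AGAACA and TGTTCT with 3 bases between them, was in 3 of all windows (0.00913%), 1 of them a start of Sgk1. Half-sites were thus about as frequent in the list's windows as in all windows. Of the 12 higher and 12 lower genes, those with a start site found had it in 1 of 17 and in 5 of 15 windows. The windows of Sgk1, Sult1a1 and Tsc22d3 with the most half-sites are shown, with half-sites in capitals.
Sgk1, chr10:21993640-21993939, plus strand: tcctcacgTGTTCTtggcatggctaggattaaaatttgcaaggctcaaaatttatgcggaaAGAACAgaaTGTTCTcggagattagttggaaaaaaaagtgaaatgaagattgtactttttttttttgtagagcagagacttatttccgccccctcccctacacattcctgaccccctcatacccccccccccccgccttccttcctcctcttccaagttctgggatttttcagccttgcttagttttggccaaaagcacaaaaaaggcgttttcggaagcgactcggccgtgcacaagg
Sult1a1, chr7:126676369-126676668, minus strand: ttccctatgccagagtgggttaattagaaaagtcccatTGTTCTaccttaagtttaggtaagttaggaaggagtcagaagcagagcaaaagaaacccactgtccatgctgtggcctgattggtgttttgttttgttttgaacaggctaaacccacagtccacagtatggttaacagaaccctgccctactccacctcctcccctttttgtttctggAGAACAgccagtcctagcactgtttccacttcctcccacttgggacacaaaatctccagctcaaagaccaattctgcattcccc
Tsc22d3, chrX:140600473-140600772, minus strand: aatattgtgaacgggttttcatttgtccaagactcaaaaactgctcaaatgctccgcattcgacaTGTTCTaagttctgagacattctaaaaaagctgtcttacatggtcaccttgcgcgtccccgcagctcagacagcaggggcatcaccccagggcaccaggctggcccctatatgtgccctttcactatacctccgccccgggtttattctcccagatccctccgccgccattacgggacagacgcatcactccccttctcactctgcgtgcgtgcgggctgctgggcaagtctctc

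In the Sgk1 window the second and the third capital stretches are the paired form, and the first is a single half-site. Sult1a1 has a half-site on each strand and Tsc22d3 has 1. The counts are per gene and do not tell which start was used, and a match of letters is not a measured binding site.

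Genes of fatty acid oxidation and ketone body use had 5 of 18 members higher and 0 lower at an unadjusted p under 0.05, where 3.90% of all genes were higher, and 0 called. Acat1, which closes the breakdown of ketone bodies, had 59.8, 60.7 and 61.2 CPM in chow mice and 62.4, 64.1 and 69.4 CPM in fasted mice, without overlap. In 1 of the 18 members every fasted mouse lay above every chow mouse, where 0.149% of all genes did so. The log2 fold change was 0.10 ± 0.04 (adjusted p = 0.562 in edgeR). Ucp2, a mitochondrial carrier gene, had 0.44 ± 0.12, with its highest value, 36.8 CPM, in fasted mouse 10. Acadl, an acyl-CoA dehydrogenase gene, had 0.16 ± 0.06. Cpt1a, which admits fatty acids to mitochondria, had 0.20 ± 0.07. The list's median was 0.10, and without the 4 mice with a failed library 0.09 with 1 of 18 members higher at an unadjusted p under 0.05, where 1.90% of all genes were.

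The list of insulin, FoxO and mTORC1 genes held 10 members with higher and 9 with lower mean values, 3 of them higher and 0 lower at an unadjusted p under 0.05, with a median of 0.0033. Klf15, a factor of amino acid and glucose metabolism that glucocorticoids raise, had 22.6, 25.3 and 26.8 CPM in chow mice and 24.5, 30.2 and 35.6 CPM in fasted mice. Its log2 fold change was 0.28 ± 0.08. Txnip, which holds back glucose uptake, had 0.41 ± 0.15. Ddit4, an inhibitor of mTORC1 that is on the glucocorticoid list too, had 0.27 ± 0.10. In the 8 remaining mice 15 of 19 members had higher values, 1 at an unadjusted p under 0.05.

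Receptors for appetite hormones and peptides moved with single mice. Cckar, a cholecystokinin receptor gene, and Ghsr, the ghrelin receptor gene, had log2 fold changes of 1.26 ± 0.48 and 1.12 ± 0.45, and both were highest in fasted mouse 10, whose column held hypothalamic genes. In columns low in markers of other regions the values were -0.19 and -0.36. Crhr1, a corticotropin releasing hormone receptor gene, had -0.56 ± 0.26 with its highest value in chow mouse 6, and -0.03 without the 4 mice. In all, 13 of 17 had higher mean values, 2 were higher and 1 lower at an unadjusted p under 0.05, and the median was 0.10.

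Sterol synthesis genes, chaperones and heat shock genes gave no member at an unadjusted p under 0.05 in all mice. Of 19 sterol genes 13 had higher and 6 lower mean values, with a median of 0.01, and Lss and Stard4 had log2 fold changes of 0.06 ± 0.07 and -0.08 ± 0.11. Of 14 endoplasmic reticulum chaperone genes 11 had lower values, with a median of -0.08, and Xbp1, Sdf2l1 and Calr had -0.14 ± 0.08, -0.34 ± 0.22 and -0.16 ± 0.11. Of 12 cytosolic and mitochondrial heat shock genes 6 had higher and 6 lower values, and Cryab, Hspa1b and Hspb1 had -0.22 ± 0.14, -0.38 ± 0.25 and -0.30 ± 0.25. The columns and mice taken changed this. In columns with at least 40 CPM of Tfap2d all 14 chaperone genes had lower values, 8 of them at an unadjusted p under 0.05, with a median of -0.22, and 11 of 12 heat shock genes did, 3 at that level. Of all genes in that fit 1296 of 22288 were at that level, in either direction. In columns low in markers of other regions all 14 chaperone and all 12 heat shock genes had lower values, 1 and 2 at that level, and so had 15 of 19 sterol genes, 2 at that level, with a median of -0.10. Of all genes in that fit 1368 of 22601 were at that level, in either direction. In columns with at least 15 CPM of Pax7 the sterol genes had lower values in 18 of 19, 0 at that level, with a median of -0.12.

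Of 17 circadian clock genes 9 had higher and 8 lower mean values, with a median of 0.02. Ciart and Npas2 were higher at an unadjusted p under 0.05, with log2 fold changes of 0.19 ± 0.08 and 0.30 ± 0.13, and Nfil3 was lower, with -0.23 ± 0.10. The core activator genes Clock and Bmal1 had -0.08 ± 0.05 and -0.20 ± 0.11, and Bmal1 -0.02 without the 4 mice. Each round held cages of both diets.

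Immediate early genes, which neurons switch on within minutes of firing, had lower mean values in 13 of 14 members, 1 of them at an unadjusted p under 0.05 (Nr4a3), with a median of -0.26. Egr1 had 43.3, 51.6 and 57.6 CPM in chow mice and 30.9, 35.4 and 70.4 CPM in fasted mice, and Arc 30.8, 40.8 and 45.1 against 18.1, 25.8 and 56.1 CPM. In both genes 5 of 6 fasted mice lay below every chow mouse, and fasted mouse 8 lay above every chow mouse. Their log2 fold changes were -0.34 ± 0.17 and -0.39 ± 0.20. The list's median was -0.59 without fasted mouse 8, -0.09 without the 4 mice with a failed library, and 0.07 in columns low in markers of other regions. In columns with at least 15 CPM of Pax7 all 14 had higher values, 1 at an unadjusted p under 0.05, with a median of 0.48. In columns with at least 40 CPM of Tfap2d 12 of 14 had lower values, 4 at that level, with a median of -0.33. At that level stood 1212 of all 23221 and 1296 of all 22288 genes in these fits, in either direction. The mice differed too. The Pax7 fit held chow mice 1, 2, 4 and 5 and fasted mice 7, 8, 9 and 12. The Tfap2d fit held chow mice 2 to 6 and all 6 fasted mice, with the third column of fasted mouse 9. The direction thus varied with the columns and mice taken, and their parts were not tested. Fasted mouse 8 is the mouse whose column with more Pax7 had 187 CPM of Slc17a7 and 21.7 CPM of Tbr1, and the part of that tissue in these values was not tested. Genes of the transmitters and peptides of collicular neurons had 0 of 18 members at an unadjusted p under 0.05. Nos1, Slc17a7 and Vip had log2 fold changes of -0.17 ± 0.08, -1.76 ± 0.88 and 0.43 ± 0.24, and Slc17a7 had 0.64 without the 4 mice.

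Of the cell types in the tissue, brain endothelial genes had the most members with higher values at an unadjusted p under 0.05, 4 of 14, where 3.90% of all genes were higher. In 12 of 14 the mean was higher, with a median of 0.12, and their summed level was 590 to 708 CPM in chow mice and 645 to 830 CPM in fasted mice. The 4 were transporter genes of the blood-brain barrier: Mfsd2a (docosahexaenoic acid), Slco1a4 (organic anions), Slc2a1 (glucose) and Slc7a5 (large neutral amino acids), with log2 fold changes of 0.65 ± 0.20, 0.28 ± 0.09, 0.30 ± 0.11 and 0.24 ± 0.08. Each was highest in fasted mouse 11. Mfsd2a had 7.57, 15.0 and 21.3 CPM in chow mice and 15.9, 20.9 and 34.9 CPM in fasted mice. In bulk tissue, more endothelial cells and more transcript per cell cannot be told apart. In the 8 remaining mice 12 of 14 had higher values, 3 at an unadjusted p under 0.05, where 1.90% of all genes were higher, with a median of 0.07. The list was split in the 24 h study, with 5 of 14 called higher and 4 called lower and a median of 0.11. Of all genes there 8.39% were called higher and 4.59% lower.

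Oligodendrocyte lineage markers had 12 of 18 higher mean values, 0 at an unadjusted p under 0.05, and microglia markers 10 of 12. Their medians were 0.04 and 0.02, and without the 4 mice -0.12 and -0.05. In columns low in markers of other regions 16 of the 18 oligodendrocyte markers had lower values, 8 of them at an unadjusted p under 0.05, with a median of -0.23, and in columns with at least 15 CPM of Pax7 also 16, 9 at that level, with a median of -0.32. At that level stood 1368 of all 22601 genes in the columns low in markers and 1212 of all 23221 genes in those chosen by Pax7, in either direction. With at least 40 CPM of Tfap2d the median of the oligodendrocyte markers was -0.07 with 0 at that level. The columns taken from each mouse differed between these fits, and their part was not tested. Chow mouse 6 had the lowest sums of both, 2997 and 123 CPM. Pdgfra, Neu4 and Cspg4, genes of oligodendrocyte precursors, had 0.25 ± 0.12, 0.28 ± 0.16 and 0.11 ± 0.10, and the microglia genes Trem2, Aif1 and C1qc 0.15 ± 0.14, 0.14 ± 0.18 and 0.09 ± 0.12. Of 9 astrocyte markers Aqp4, the water channel gene, was lower at an unadjusted p under 0.05, with -0.21 ± 0.10, while Glul, glutamine synthetase, and Gfap had 0.18 ± 0.11 and 0.28 ± 0.19. Blood cell markers had lower means in 5 of 5, with a median of -0.28 and sums of 127 to 169 CPM in chow mice and 77.9 to 193 CPM in fasted mice. Hba-a1, Hbb-bs and Hba-a2, globin genes whose reads near-identical copies can share, had -0.33 ± 0.26, -0.32 ± 0.26 and -0.28 ± 0.29.

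Markers of neighbouring tissue moved with single mice. All 6 cerebellar markers were lower in the fasted group at an unadjusted p under 0.05, with a median of -2.66 and sums of 27.6 to 2573 CPM in chow mice and 29.9 to 246 CPM in fasted mice. Gabra6, Cbln3 and Cdh15 had -3.62 ± 1.24, -3.46 ± 1.22 and -1.86 ± 0.66, and the diets overlapped in each of the 6. Leaving out the 4 mice gave a median of -0.82, and leaving out only chow mouse 6 -1.32, both with 0 of 6 at that level. In columns low in markers of other regions, a filter that uses Gabra6, the median was 0.29. Slc6a3, the dopamine transporter gene, had 4.18 ± 1.11 with all 12 mice, 52.6 CPM in fasted mouse 10, and -0.28 without the 4 mice. In the same list Th had 1.32 ± 0.71 and Tph2 -0.16 ± 1.31. Neurod6, a gene of cortical and hippocampal neurons, had -1.83 ± 0.71, and Prox1 and Wfs1 -0.23 ± 0.15 and 0.13 ± 0.10.

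Choroid plexus (Clic6, Ttr and Kl at 0.38 ± 0.25, 0.64 ± 0.56 and 0.17 ± 0.19), meningeal (Lum, Slc6a13 and Dcn at -0.22 ± 0.27, 0.38 ± 0.49 and 0.21 ± 0.27) and thalamic markers (Synpo2, Ramp3 and Tnnt1 at 0.11 ± 0.08, -0.34 ± 0.30 and 0.37 ± 0.40) gave no member at an unadjusted p under 0.05. Of the pineal markers, Aanat had 0.62 ± 0.21, Tph1 -1.88 ± 0.81 and Sag -0.15 ± 0.21, all 3 at or below 2.63 CPM in every mouse, and Asmt, Crx and Gngt1 were below the filter. The part of this tissue content in the other results was not tested beyond the fits that leave out mice or columns.

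To see whether the colliculi stood apart from the other columns of the same mouse, the log2 CPM of the collicular sum minus that of those columns was compared between diets with limma. Of 26255 genes 0 were called (0%), 1778 had an unadjusted p under 0.05 (6.77%), and the lowest adjusted p was 0.673. In the 8 mice without a failed library 681 genes had an unadjusted p under 0.05, and 0 were called. The glucocorticoid list had a median of 0.07 in this difference, against 0.04 over all genes, with 14 of 19 members above 0, 2 higher and 1 lower at that level. Other lists lay above 0 more evenly: 19 of 19 sterol genes (3 at that level, median 0.22), 14 of 14 endoplasmic reticulum chaperone genes (3, median 0.19), 18 of 18 oligodendrocyte markers (0, median 0.18) and 11 of 12 heat shock genes (1, median 0.17). In the 8 mice without a failed library these medians were 0.07, 0.08, -0.05 and 0.12, in the same order. A value above 0 here is the fasted minus the chow mean of a difference between regions, and it does not tell whether the colliculi or the other columns moved. Columns under 1000000 counts dropped out. The other columns numbered 2 in chow mouse 4 and fasted mice 10, 11 and 12, and 3 in the rest of the chow and fasted mice. They included the third column of fasted mouse 9, with 43.8 CPM of Tfap2d. Columns of fasted mice 10 and 12 rich in Hcrt were in the collicular sums. The part of this imbalance was not tested. For Hif3a the difference was 0.20 ± 0.15 and for Etnppl 0.38 ± 0.33 (adjusted p = 0.725 and 0.756 in limma).

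The 24 h study gave a large response in columns chosen by the same rule. Of 25019 genes edgeR called 3247 (13.0%), 2099 higher (8.39%) and 1148 lower (4.59%), so that 64.6% of the calls were higher, or 2662, 55.5% of them higher, with the size factors of DESeq2. Failed libraries were not balanced there: 7 of the 9 fasted and 3 of the 8 chow mice had a colliculus library that the labels mark as failing quality control, and mitochondrial transcripts made up 8.70 to 22.2% and 8.34 to 23.1% of the sums. In fits added after seeing the data, edgeR called 100 of 26700 genes, 79 higher (0.296%), in the 2 fasted and 5 chow mice without such a library, and 2887, 1801 of them higher (7.20%), with a failed library as a term. Of the 3247 genes, 3222 of the 3244 tested kept their direction in those 7 mice, a subset of the same mice, and 96 were called there. The part of library quality in the size of the response was not tested beyond these fits. Some 24 h columns were low in collicular markers. Fasted mouse 1444 had 1.67 and 0 CPM of Pax7. The column of chow mouse 1422 with less Pax7 had 2.61 CPM of Tfap2d. In chow mouse 1451 a column left out had 31.7 CPM of Tfap2d. Meningeal markers had a median log2 fold change of -1.30 at 24 h, with 5 of 7 called lower. Medians were -1.10 for hippocampus and cortex markers and 0.33 for cerebellum markers, with 0 called. The part of this tissue content was not tested. Diet duration, start time of day, single housing and sequencing run all differed between the studies and cannot be told apart, and no mouse is in both. The 24 h colliculi were all from the left hemisphere. Body weight changed by -20.7 to -17.1% in the 24 h fasted mice of the fit, against -7.52 to -1.30% in the 16 h fasted mice. Of the 12 genes named above for higher values 7 rose at 24 h: Etnppl by 1.09 ± 0.09, Hif3a by 2.44 ± 0.13, Cbs by 0.86 ± 0.07, Sdc4 by 1.06 ± 0.08, Prodh by 0.77 ± 0.09, Cirbp by 0.58 ± 0.07 and Erlin2 by 0.34 ± 0.07 on the log2 scale (adjusted p of 0.00221 for Erlin2 and at most 1.12e-05 for the others, edgeR). The share of all genes that rose was 8.39%. Uvssa had 0.20 ± 0.09 at 24 h (adjusted p = 0.171, edgeR), the same size as at 16 h, and Gstz1, Zkscan2, Tgif1 and Oacyl had 0.17 ± 0.07, 7.4e-05 ± 0.08, 0.16 ± 0.16 and 0.13 ± 0.19, not called.

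Of the 12 genes with lower values 3 fell at 24 h, where 4.59% of all genes did: Eml1 at -0.68 ± 0.09, Unc5b at -0.65 ± 0.19 and Creb1 at -0.22 ± 0.06 (adjusted p = 5.03e-05, 0.0290 and 0.0242, edgeR). None of the 12 rose. In the 7 mice without a failed library 4 of the 12 higher genes were called higher and 0 of the 12 lower genes were called lower, and with a failed library as a term 7 and 2. Nr4a3 had 0.29 ± 0.15 and Fastkd5 0.19 ± 0.09 at 24 h, not called, against their lower values at 16 h. In the glucocorticoid list 18 of 19 genes rose at 24 h, where 8.39% of all genes did, and 0 fell, with a median of 1.77 against 0.28 at 16 h. In the 7 mice without a failed library 18 of 19 were higher, 9 of them called, with a median of 1.29, and with a failed library as a term 18 were called higher, with a median of 1.55. The exception was Tgm2 at -0.06 ± 0.18, named after its value was seen.

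**Figure D5:**
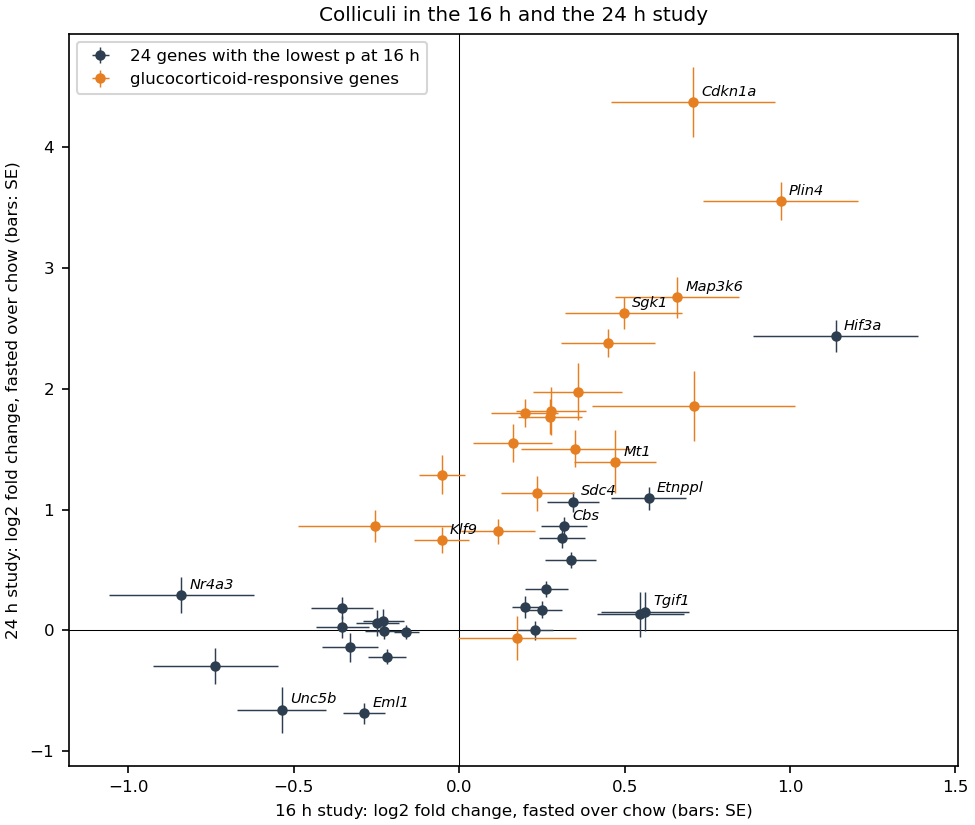
Log2 fold change of fasted over chow colliculi in the 16 h study (x axis) and in the 24 h study (y axis), with bars of 1 SE, for the 24 genes with the lowest p at 16 h (dark) and the glucocorticoid-responsive genes (orange). Of the 19 glucocorticoid-responsive genes 18 lie above 0 on the y axis, with Tgm2 at -0.06, and all lie between -0.26 and 0.97 on the x axis, and most dark points with lower values at 16 h lie near 0 at 24 h.

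Over all genes called at 24 h and tested at 16 h, 2114 of 3223 (65.6%) had the same direction after 16 h. The genes that rose at 24 h, by a median of 0.33, had a median log2 fold change of 0.04 at 16 h, and 70.1% of them were above 0, where 49.5% of all genes tested were. Those that fell, with a median of -0.65 at 24 h, had a median of -0.03, and 57.5% of them were below 0. At an unadjusted p under 0.05 after 16 h, 305 of the 3223 had the direction of the 24 h study and 34 the opposite. Of all 26255 genes tested, 2257 (8.60%) were at that level in either direction. Without the 4 mice with a failed library the same direction was seen in 62.6%, 67.5% of the genes that rose and 53.8% of those that fell, and in columns low in markers of other regions in 56.7%. At an unadjusted p under 0.05, 146 had the same and 14 the opposite direction without those mice, where 3.70% of all genes were at that level. In those columns the counts were 227 and 58, where 1368 of 22601 genes were at that level.

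The mean of these genes with the sign of the 24 h effect, a score on the log2 scale relative to the 12 mice, was -0.05, -0.04 and 0.0038 in chow mice (lowest, median and highest) and -0.11, 0.02 and 0.18 in fasted mice. The groups overlapped. Mouse 11 had the highest score, 0.18, and mouse 12 the next, 0.08, while fasted mouse 8 had the lowest of all. By round of cages, the fasted minus the chow mean was -0.02 in the first, 0.07 in the second and 0.14 in the third round.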

How the data were processed

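Counts per Ensembl gene were deposited by the authors as raw counts for 185 columns, headed by mouse (37 headings of 5 columns), without normalization or a filter. The submitters' processing notes name bcl2fastq 2.20.0, STAR 2.7.3a and GRCm39, and the strand of the counts is not given in the sources used here. Symbols came from GENCODE (release M39) and matched 56310 of 57010 genes. Columns under 1000000 counts were not considered. The rule for columns and the gene lists were chosen with earlier results of these data known. Sums per mouse were tested in edgeR 4.0.16 (filterByExpr, TMM, quasi-likelihood test, chow, fasted and HFD mice in 1 fit) in R 4.3.3, with Benjamini-Hochberg adjustment over all genes. Differences from other columns used limma 3.58.1 (log2 CPM, prior count 2). DESeq2 1.42.0 and sva 3.50.0 served as alternatives, Python 3.11.15 for tables and figures. Calls needed an adjusted p under 0.05. Fits were tested on simulated counts. At 24 h, the 2 mice whose superior colliculus samples had been exchanged in handling were left out.

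Named genes are the 12 higher and 12 lower protein-coding genes of lowest p whose mean log2 CPM was 1 or more, and the 3 members of lowest p in each of 22 lists, plus members a sentence on a list needs. A member of the sterol list that the rule would name is not reported here. Cage mates count as separate mice, so p-values measure the spread between mice. Sums of 28991045 to 45238904 counts limit genes of low expression most. Alternatives changed normalization, filter, test, threshold, covariates (round of cages, hemisphere, 1 surrogate variable), columns, mice and unit (cage).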

Additional observations from a re-analysis of the deposited data

Results flagged for a closer look

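Among 112 group values tested, 13 samples stood apart from the other 5 of their group by more than Dixon's 95% limit, and chance alone flags about 1 group in 20. Chow mouse 6, whose column with less Pax7 held cerebellar genes, accounts for 5 of them: Etnppl at 51.3 CPM (others 70.2 to 73.9), Unc5b at 124 CPM (others 63.4 to 75.2), and the mean log2 level relative to the chow mean of the insulin, FoxO and mTORC1 list at 0.18 (others -0.08 to 0.01), of the oligodendrocyte markers at -0.76 (others -0.06 to 0.35) and of the microglia markers at -0.55 (others -0.02 to 0.27). Chow mouse 2, with raphe genes in a column, stood apart in the raphe and dopamine list at 2.87 (others -0.89 to -0.33) and in the fatty acid oxidation list at 0.14 (others -0.05 to -0.00075).

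Fasted mouse 10, with hypothalamic genes in a column, stood apart in Hcrt at 50.4 CPM (others up to 13.9), in Avp at 79.3 CPM (others up to 23.8) and in Gstz1 at 43.3 CPM (others 33.0 to 36.8). Fasted mouse 9 stood apart in the heat shock list at 0.14 (others -0.14 to -0.04) and in the pineal list at 0.061 (others -0.39 to -0.30), and fasted mouse 8 in the immediate early genes at 0.64 (others -0.76 to -0.28). The third column of fasted mouse 9, left out of the sums, had a marker score of 3.47, against 0.479 to 1.35 for the third column of the other 11 chow and fasted mice.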

How the results depend on the processing

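With edgeR or limma the count of called genes at 16 h was 0 under every alternative tried, and under leaving out each mouse in turn (0 to 0), while DESeq2 called 8 (12 at an adjusted p under 0.1). With 1 mouse left out, 1556 to 2722 genes had an unadjusted p under 0.05, against 2257 in all mice, 1212 in columns with at least 15 CPM of Pax7, 1296 in columns with at least 40 CPM of Tfap2d, 1368 in columns low in markers of other regions and 3201, 1590 and 1168 without the first, the second and the third round. The lowest adjusted p over the edgeR and limma alternatives ran from 0.0933 (without fasted mouse 8) to 1.00. A gap of at least 1 kept all mice and gave the same fit. The count of genes called for the difference from the other columns was 0 throughout, with 1778 at an unadjusted p under 0.05, and 939, 993 and 2953 without fasted mice 12, 10 and 11 and 1060 without chow mouse 3, and the 24 h count ran from 2377 (sum of counts over 10) to 3607 (DESeq2), of which 51.3% and 54.9% were higher, but was 100 without mice with a failed library, which leaves 2 fasted and 5 chow mice. Of the 89 named genes 51 kept their direction in the 21 alternatives and 12 fits without 1 mouse, wherever they could be fitted, as did the 12 higher and 12 lower genes except Nr4a3. No paired analysis was possible by mouse number because these are not shared between diets, and round of cages as a term left 0 calls and 1996 genes below an unadjusted p of 0.05. The columns and mice taken, chosen in part after seeing the data (by Pax7, by Tfap2d, low in markers, rounds, no fasted mouse 9), turned markers of other tissue and some immediate early genes, and the causes were not tested.

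With only the column with more Pax7 the log2 fold changes were 0.20 for Nr4a3, 0.0017 for Egr1, 0.0034 for Xbp1, 0.0027 for Hspa1b, 0.056 for Hspb1, 0.074 for Stard4, 0.043 for Nos1, 1.30 for Slc17a7, -0.0021 for Cspg4, 0.046 for Lum, 0.10 for Gabra6, 0.34 for Cbln3, 0.067 for Cdh15 and 0.41 for Ramp3. With the column with less Pax7 they were -0.21 for Aif1, -0.062 for C1qc, -0.12 for Clic6, -0.14 for Ttr, -0.48 for Kl, -0.15 for Slc6a13, -0.019 for Dcn, -0.031 for Wfs1, -0.21 for Th and 4.60 for Tph2. In columns with at least 15 CPM of Pax7 they were 0.24 for Nr4a3, 0.22 for Egr1, 0.27 for Arc, 0.29 for Hspb1, -0.012 for Lss, 0.033 for Crhr1, 0.030 for Nos1, 1.63 for Slc17a7, -0.060 for Cspg4, 0.22 for Hba-a2, 0.094 for Lum, 0.013 for Sag, 1.69 for Gabra6, 1.83 for Cbln3, 0.61 for Cdh15 and 0.45 for Ramp3. In columns with at least 40 CPM of Tfap2d they were 0.85 for Slc17a7, -0.019 for Cspg4, -0.064 for Trem2, -0.17 for Aif1, -0.021 for C1qc, 0.049 for Lum, 0.13 for Ramp3 and 0.048 for Prox1. In columns low in markers of other regions they were -0.19 for Cckar, -0.36 for Ghsr, 0.078 for Nos1, 1.87 for Slc17a7, -0.072 for Cspg4, -0.0024 for Trem2, -0.068 for Aif1, 0.20 for Lum, 0.33 for Gabra6, 0.53 for Cbln3, 0.24 for Cdh15, 0.056 for Ramp3, -0.029 for Tnnt1 and 1.03 for Neurod6. Without mice with a failed library they were 0.033 for Stard4, 0.64 for Slc17a7, -0.12 for Clic6, 0.44 for Ramp3, 0.20 for Neurod6, -0.28 for Slc6a3 and -0.086 for Th, and also without fasted mouse 9 0.049 for Stard4, 0.73 for Slc17a7, -0.0048 for Trem2, -0.090 for Clic6, 0.40 for Ramp3 and 0.24 for Tph2. Glul had -0.011 and Trem2 -0.0058 without the third round, Lum 0.026 without the second, and Synpo2 -0.012 and Tph2 4.51 without the first. Tph2 had 0.25 with hemisphere as a term and 0.062 with equal weight of the columns. Leaving out single mice gave -3.60 to 3.28 for Tph2, -0.28 to 0.96 for Ttr, -0.066 to 0.58 for Slc6a13 and -0.010 to 0.14 for C1qc.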
